A study of Caenorhabditis elegans with 2 samples.

Results

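Wide regions of CEC-7 binding were examined in whole Caenorhabditis elegans adults. They were chosen by width alone, as all peaks of 4000 bp or more (peak end minus peak start plus 1) in the deposited list, which gave 395 of 2767 peaks. The other 2372 peaks are called narrower peaks here. The samples were 1 chromatin immunoprecipitation (ChIP) library made with an affinity-purified rabbit polyclonal antibody against CEC-7, and 1 input DNA library, and each carries the replicate number 2. A peak list of the ChIP library was analysed, and no list of the input library was used here. Both libraries came from fem-2(b245) hermaphrodites grown at 20 degrees Celsius. The labels call the stage young adult with a germline, whereas the growth protocol describes the isolation of gravid adults. Material was pooled from many animals, so the germline, intestine and all other tissues contributed. With 1 library there is no replicate error, and peaks of 1 library are not replicates. No p-value is given below, and the exact binomial 95% intervals of shares cover counting error only. Sequencing depth is unknown, so how far width depends on depth was not tested.

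CEC-7, encoded by Y37D8A.11, belongs to the worm proteins named for a chromodomain, a fold that in many proteins binds methylated histone tails. In worm chromatin some histone marks sit at gene starts and others spread along the whole transcribed body, so a broad region of binding can follow a gene from end to end. Worm genes lie close together, and some neighbours are transcribed as operons, so a broad region can also run across several short genes. The fem-2 gene, mutated in both libraries, acts in sex determination.

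Width chose the wide peaks, so their width and score are a description. Median width was 5083 bp in wide peaks (quartiles 4471 and 6240 bp, range 4006 to 14431 bp) and 1791.5 bp in narrower peaks. Of the wide peaks, 186 were under 5000 bp, 172 were from 5000 to below 8000 bp and 37 were 8000 bp or more. They made up 14.3% of all peaks and 31.7% of all bases in peaks, 2206232 of 6959636 bp. The authors' score, used only to rank peaks within the list, had a median of 449 in wide peaks and 109 in narrower peaks. The 100 highest scores included 90 wide peaks. Even so, 20 wide peaks scored below the median of the narrower ones, down to 51.37. The threshold fell in a continuous range of widths. Just inside it lay peaks of 4006, 4009, 4011, 4014 and 4017 bp, with scores of 51.37, 318.26, 253.03, 329.03 and 379.94. Just outside it lay peaks of 3997, 3995, 3994, 3994 and 3992 bp, with scores of 182, 101.03, 477.72, 438.93 and 399.03.

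**Figure D1:**
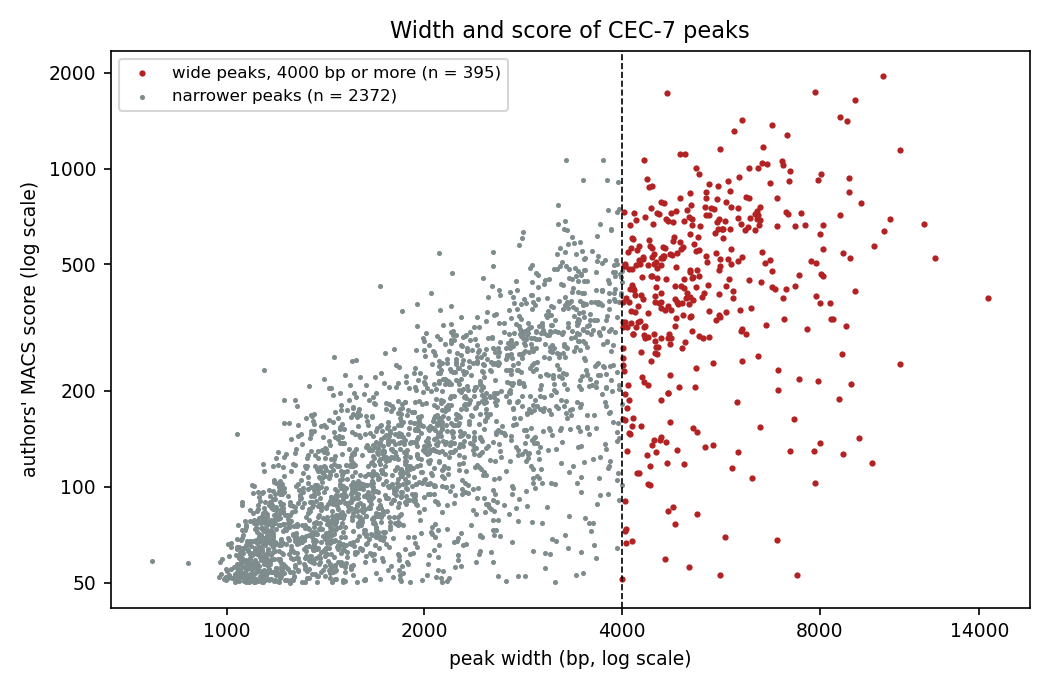
Each point is a CEC-7 peak, with its width on the x axis in bp and the authors' MACS score on the y axis, both on log scales. Wide peaks (red, n = 395) and narrower peaks (grey, n = 2372) form 1 continuous cloud across the dashed line at 4000 bp, and scores of wide peaks run from 51.37 to 1951.83.

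Genes were placed at peaks next. The peaks are on WormBase WS220, and the genes come from RefSeq's table for WBcel235, whose positions differ slightly. A protein-coding gene was therefore counted as spanned when at least 500 bp of it, or all of a shorter gene, lay inside a peak. Wide peaks spanned 658 different genes, 3.29% of the 19971 protein-coding genes on the nuclear chromosomes. A further 2017 genes (10.1%) were met by narrower peaks only, and 13.4% of all genes by any peak. Among the 658 genes, 69 also met a narrower peak. Of the bases in wide peaks 93.3% lay inside protein-coding genes, close to the 94.5% of narrower peaks, against 61.9% of the chromosomes.

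Wide peaks were divided almost evenly between those that spanned 1 gene and those that spanned several. Of the 395 peaks, 195 (49.4%, exact 95% interval 44.3 to 54.4%) held 1 placed gene and 190 (48.1%, 43.1 to 53.2%) held 2 or more. Counts of 2, 3, 4 and 5 genes were found at 117, 57, 13 and 3 peaks, and 10 peaks held none. Of the narrower peaks 85.7% held 1 gene and 11.8% held 2 or more. This difference follows at least in part from width, because a longer interval meets more genes. Per 10 kb of peak, wide peaks had 3.02 placed genes and narrower peaks 5.51, and a narrower peak that clips 1 gene counts that gene in full.

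In the peaks with 1 gene, that gene was long. Its median length, introns included, was 6723 bp (quartiles 5029 and 10637.5 bp, n = 195), against 2006 bp over all protein-coding genes. In the peaks with 2 or more genes the placed genes were shorter, with a median of 2292 bp (quartiles 1509.75 and 3625.25 bp, n = 472 placements). That was still somewhat above the 2006 bp of all protein-coding genes. The peaks themselves differed less, with median widths of 4831 bp at 1 gene and 5432.5 bp at several. Since 93.3% of bases in wide peaks lay in genes, a wide peak with 1 placed gene mostly has to lie on a long gene. The contrast in gene length between these 2 groups of peaks is thus tied to the width rule. Taking all placed genes together, length hardly differed between wide and narrower peaks. The median was 3272.5 bp for the 658 genes under wide peaks and 3232 bp for those under narrower peaks only, and the order of these values turned with the placement rule. At the peak midpoint the gene had a median length of 5177 bp in wide peaks (n = 373) and 4732 bp in narrower peaks (n = 2279), and 5091 and 3623 bp when each such gene was counted once and genes at wide peaks were left out of the narrower set. Any interval meets long genes more often than short ones, so these values exceed that of all genes for that reason too.

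**Figure D2:**
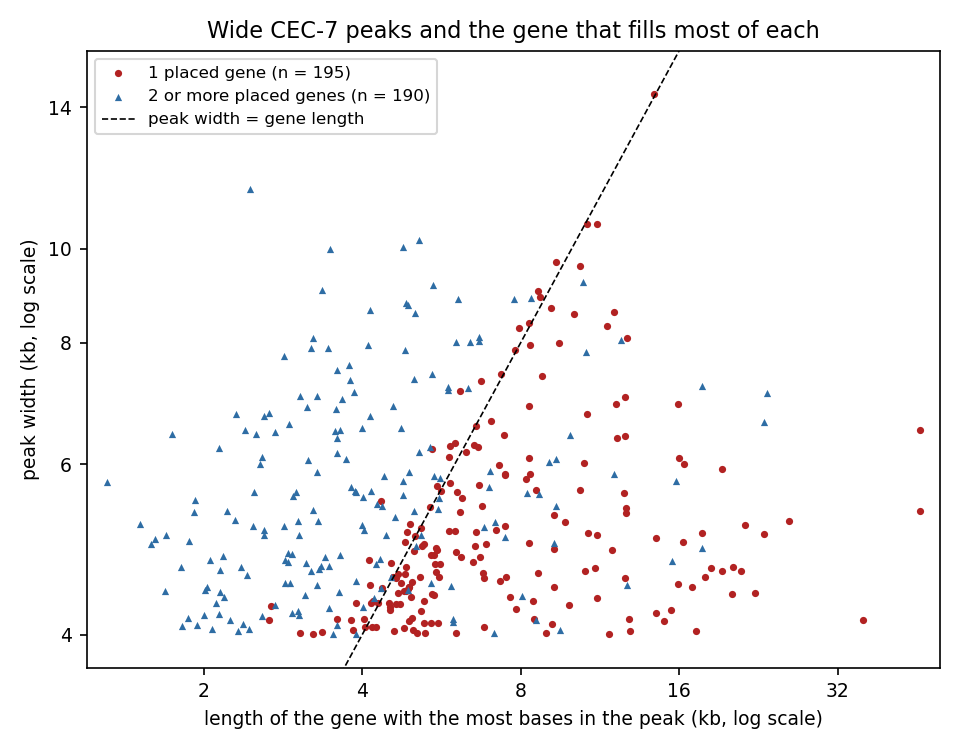
Each point is a wide peak with at least 1 placed gene. The x axis gives the length in kb of the gene with the most bases in the peak and the y axis the peak width in kb, both on log scales. Peaks with 1 gene (red circles, n = 195) mostly lie along or to the right of the dashed line of equal size, where the gene is as long as the peak or longer, and most peaks with several genes (blue triangles, n = 190) lie to its left.

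Wide peaks took in most of the gene they sat on. The gene with the most bases in a peak, called its main gene, had a median of 89.4% of its length inside wide peaks (quartiles 64.9 and 99.7%, n = 385) and 38.4% inside narrower peaks (n = 2312). At least 90% of the main gene was covered at 189 of 395 wide peaks (47.8%, exact 95% interval 42.8 to 52.9%) and at 14.6% of narrower peaks. At 63 wide peaks (15.9%) the match went both ways, with 90% of the gene in the peak and 90% of the peak in the gene, and the share was 5.94% in narrower peaks. A longer peak can cover more of a gene, so these shares are tied to the rule. They changed gradually with width. The median covered share of the main gene was 19.4% in peaks under 1500 bp, 57.7% from 2000 to below 3000 bp, 80.9% from 3000 to below 4000 bp, 84.0% from 4000 to below 5000 bp and 95.2% from 8000 bp up.

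Edges of wide peaks lay near gene ends more often than those of narrower peaks. Of 790 edges of wide peaks, 474 (60%, exact 95% interval 56.5 to 63.4%) were within 500 bp of the start or end of a protein-coding gene, against 39.9% of 4744 edges of narrower peaks (38.5 to 41.3%). Of all chromosome bases 31.1% lie that close to a gene end. Both edges met this at 152 wide peaks (38.5%) and at 22.2% of narrower peaks. No step was seen at 4000 bp, since the share of edges was 56.7% in wide peaks below 5000 bp and 58.4% in narrower peaks of 3000 bp or more. The gene table carries no strand, so starts were not told from ends.

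The widest peak, II:11661291-11675721, was 14431 bp wide with a score of 392.76. It held 98.6% of trr-1, a gene of 14359 bp for the worm TRRAP homolog, a scaffold of histone acetyltransferase complexes. The peak at I:8905669-8916285 (10617 bp, score 243.36) held 95.2% of vps-13A, a VPS13 lipid-transfer protein gene of 11158 bp. Genes for ubiquitin ligases followed. The ubr-5 gene (10672 bp) had 98.1% of its length in a peak of 10614 bp with a score of 1146.13. For ubr-1 (9347 bp) it was 99.2% in 9681 bp (score 569.02). These peaks all followed their gene from end to end, while their scores differed widely.

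Further long genes were covered almost whole by 1 wide peak. By length after ubr-1 they were lin-13 (94.9% of 9154 bp), a zinc-finger gene of the synMuv class, larp-1 (100% of 8726 bp), a La-related RNA-binding protein gene, and let-765 (100% of 8649 bp). Next came npp-21 (100% of 8358 bp), the nucleoporin TPR, prp-8 (95.5% of 8338 bp), a core spliceosome protein, and cbp-1 (98.7% of 8316 bp), the CBP/p300 acetyltransferase. Then followed nmy-2 (100% of 7955 bp), a nonmuscle myosin, ecps-1 (99.2% of 7799 bp), set-2 (95% of 7778 bp), a histone H3K4 methyltransferase, and gcn-2 (98.8% of 7338 bp), an eIF2alpha kinase. Scores of these 10 peaks ran from 126.31 at lin-13 to 1744.51 at ecps-1, the second highest of the list.

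Some long genes were covered by several wide peaks in a row. The gene let-363, which encodes the TOR kinase, spans 17684 bp and held 3 wide peaks of 4918, 7221 and 5095 bp with scores of 559.57, 982.93 and 770.58. The gaps between them were 81 and 120 bp, and together they covered 97.4% of the gene. Another wide peak followed over the next gene, vep-1, so this run of 4 reached from I:5245739 to 5267975. The endocytosis gene rme-8 (12035 bp) had 95.5% of its length in peaks of 8604 and 5855 bp, separated by 162 bp. At set-16 (12722 bp), an H3K4 methyltransferase gene of the MLL family, 2 wide peaks covered 74.3%, and 98.9% with a narrower one. The gene emb-30 (5954 bp), for a subunit of the anaphase-promoting complex, had 92.8% in 2 wide peaks. In all, 8 genes met 2 or more wide peaks, and the caller's split of such a region sets whether its parts pass 4000 bp.

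The longest genes were covered only in part. The longest under any wide peak, gcn-1 (45964 bp), had 25.8% of its length in 2 wide peaks and 57.0% after adding 10 narrower peaks. The gene lpd-3 (35773 bp) had 11.6% in a wide peak of 4146 bp. Among genes of over 16 kb 5.72% met a wide peak and 25% a narrower peak only. The shares were 6.38% and 16.2% for genes over 4 kb and up to 8 kb, and 1.46% and 2.90% for genes of up to 1 kb.

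The strongest peak of the list held several genes. At III:7223628-7233615 a peak of 9988 bp with a score of 1951.83 spanned 5 genes, none longer than 3475 bp: hsp-75, R151.8, R151.10, adr-2, which encodes an RNA-editing deaminase, and ndus-8, for a subunit of respiratory complex I. At III:4935200-4944002 (8803 bp, score 1406.86) lay rpb-2, for the second subunit of RNA polymerase II, with fsn-1 and mrps-18C, a mitochondrial ribosomal protein gene. The peak at III:6433034-6442100 (9067 bp, score 1636.81) spanned vps-16, C05D11.1 and mel-32. The third highest score, 1726.36, fell on a peak of 4687 bp that held 41.9% of lin-65, a chromatin factor gene. On chromosome II, a peak of 10218 bp at 8017762 to 8027979 (score 694.48) held swsn-7, of the SWI/SNF remodelling complex, the histone deacetylase gene hda-2 and zyg-11, of a ubiquitin ligase. At III:4429609-4439644 (10036 bp, score 635.09) lay the neighbours C28A5.1 and C28A5.2, of 4730 and 4794 bp. The third widest peak, II:12150743-12162257 (11515 bp, score 670.7), held Y57A10A.4 and Y57A10A.5 and 3 pseudogenes. The other peaks with 5 genes were II:7050636-7056387 over ZK1127.3, ZK1127.4, ZK1127.5, ZK1127.12 and ZK1127.13, and III:4413885-4419140 over mpc-1, pdcd-2, R07E5.7, R07E5.11 and R07E5.19.

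Genes that shared a wide peak were close neighbours, as any such genes must be. Of 282 neighbouring pairs inside 1 wide peak 268 were less than 500 bp apart, with a median gap of 97 bp, against 40.6% of all 19965 neighbouring pairs, whose median gap was 743 bp. In narrower peaks 307 of 309 pairs were as close. Whether the pairs are operons was not tested, since the table gives no strand.

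**Figure D3:**
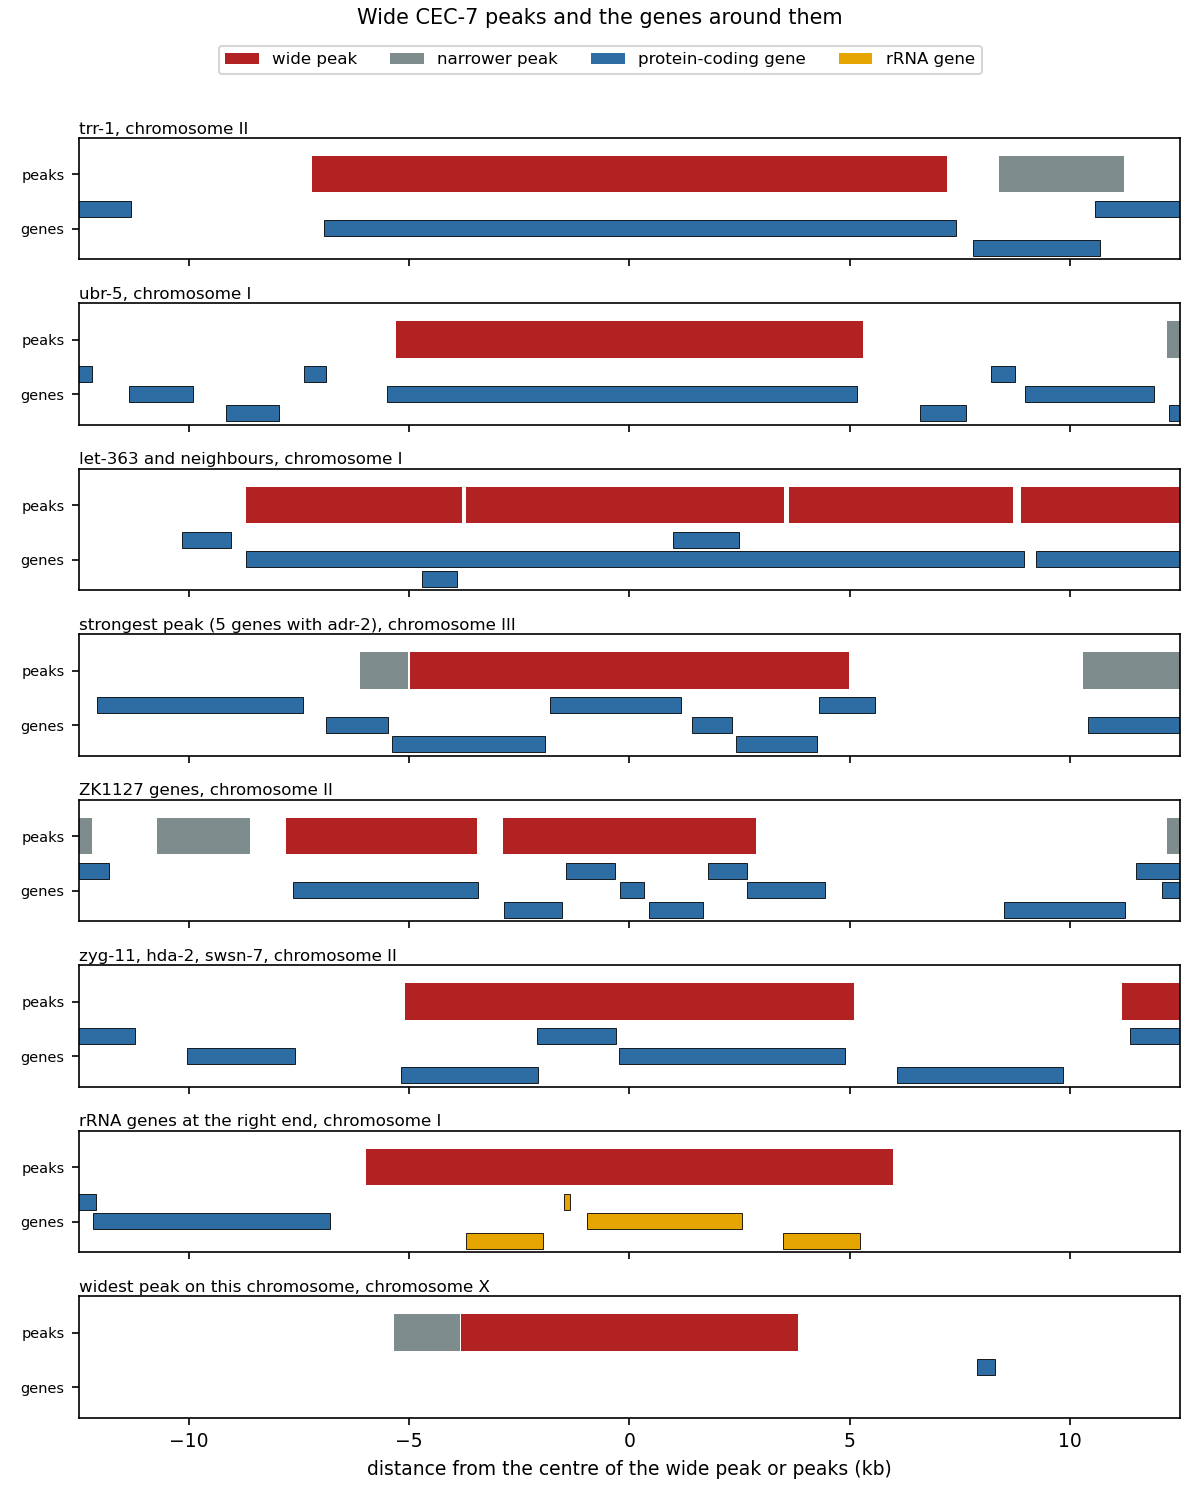
Peaks (red wide, grey narrower) and genes (blue protein-coding, orange rRNA, staggered over 3 rows) are drawn to scale by distance in kb from the centre of the wide peak or peaks named. Genes are WBcel235 positions set on WS220 peaks. Single peaks match trr-1 and ubr-5, 3 adjoining peaks match let-363, and several genes share each peak of the next 3 panels. Below these, 4 rRNA genes lie under the peak at the end of chromosome I, and no gene lies under the widest peak on X.

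**Figure D4:**
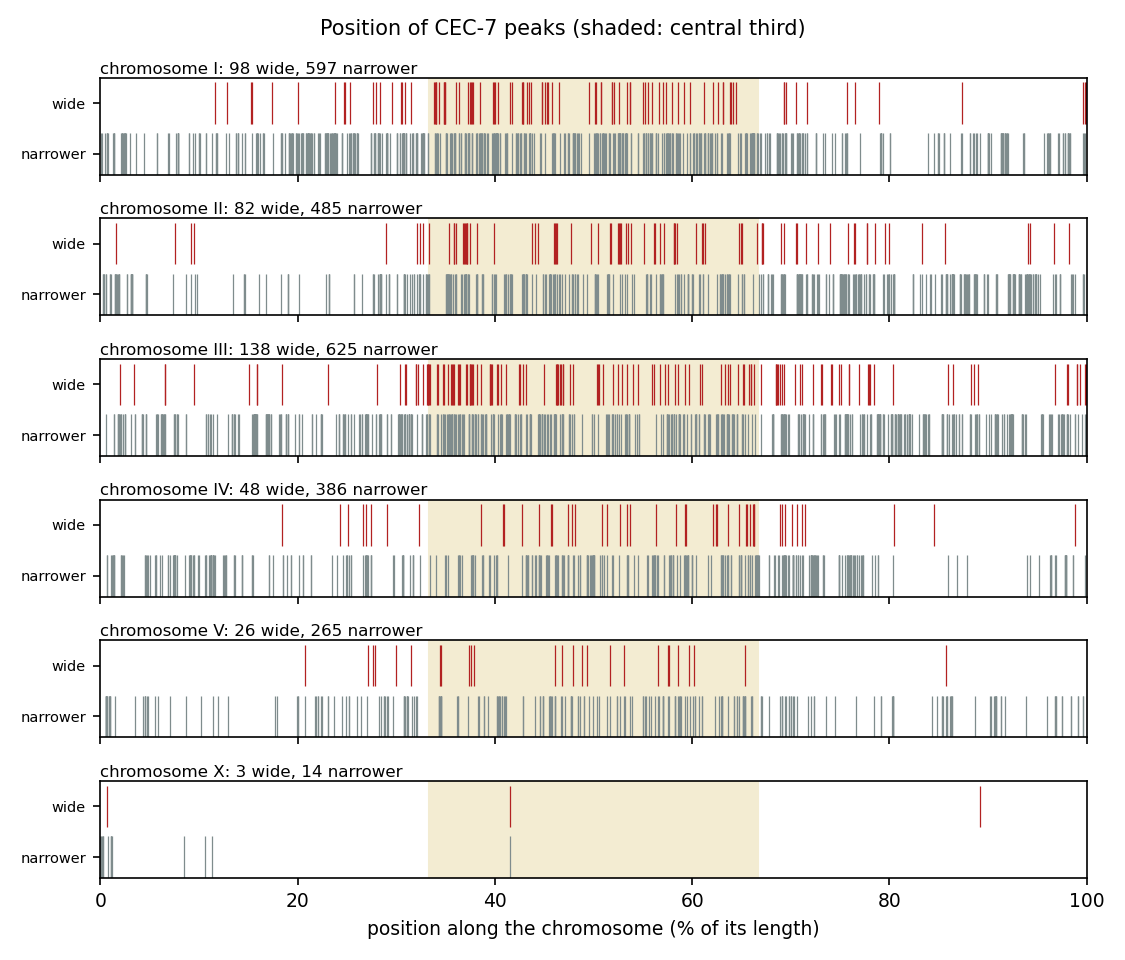
Each line is a peak midpoint, placed by percent of the chromosome length, with wide peaks (red) above narrower peaks (grey) and the central part of each chromosome shaded. Wide peaks gather in and near the centres of the autosomes, with 38.2% of all wide and 60.8% of all narrower peaks on arms, and X has 3 wide peaks.

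More wide peaks lay in chromosome centres than on arms. Taking the outer 33.3% of each side as arms, 151 of 395 wide peaks (38.2%, exact 95% interval 33.4 to 43.2%) lay on arms, against 60.8% of narrower peaks (58.8 to 62.7%). Each autosome showed the same order. On I 30.6% of wide and 56.8% of narrower peaks lay on arms. For II these shares were 40.2% of wide and 65.4% of narrower peaks. Chromosome III had 44.2% of wide and 64.5% of narrower peaks on arms. For IV it was 37.5% of wide and 58.8% of narrower peaks, and for V 26.9% of wide and 53.6% of narrower peaks. Read the other way, 20.8% of the 1175 peaks in centres were wide and 9.48% of the 1592 on arms. The share on arms changed gradually with width and showed no step at 4000 bp. It was 73.8% in peaks under 1500 bp, 52.5% from 2000 to below 3000 bp, 45.5% from 3000 to below 4000 bp, 41.9% from 4000 to below 5000 bp and 35.1% from 8000 bp up. Of all 19971 protein-coding genes 12427 lie on arms. The genes under narrower peaks also differed between these regions. On arms the main gene of a narrower peak had a median length of 6125.5 bp, of which 25.1% lay in the peak, and in centres 3408 bp, of which 61.4% did. For wide peaks the lengths were 5447 bp on arms and 4961 bp in centres. Over all protein-coding genes the medians were 2044 bp on arms and 1954.5 bp in centres.

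By chromosome, the share of peaks that were wide was highest on III, 138 of 763 (18.1%), next to 14.3% over the list. It was 3 of 17 on X, 14.5% on II, 14.1% on I, 11.1% on IV and 8.93% on V (5.92 to 12.8%). The intervals of I, II and III overlap. Chromosome III carried 34.9% of wide peaks and 26.3% of narrower peaks. Of its genes 9.24% were spanned by a wide peak, against 0.821% on V and 0 of 2730 on X (exact 95% interval 0 to 0.135%). The bin between 5 and 6 Mb on III held 23 wide peaks, the most of any 1 Mb bin, and 22 of 85 autosomal bins held none.

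The distance to the next peak did not differ between wide and narrower peaks beyond the intervals of the medians. The nearest peak was a median of 1504 bp away from wide peaks (binomial order-statistic 95% interval of the median 1184 to 2148 bp) and 1641.5 bp from narrower ones (1472 to 1800 bp), and 41.8% and 41.5% had another within 1000 bp. There were 21 runs of wide peaks less than 1000 bp apart, with 45 of the 395 peaks. The second longest, III:6375606-6396272, joined 3 wide peaks over 8 genes, among them let-716. At I:7642428-7655588 a run of 2 lay over ncbp-2 and the neighbours rrf-1 and ego-1, which encode RNA-dependent RNA polymerases.

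Groups of genes were then counted from 23 lists fixed by gene symbol, each read against the 3.29% of all protein-coding genes that a wide peak spanned. Entry by symbol does not show that each member has the function its list is named for. The 5 highest shares were those of nuclear pore, spindle, splicing, translation, and RNA polymerase II and Mediator genes. Of the nuclear pore list 43.9% met narrower peaks only, of the spindle list 27.8% and of the splicing list 35.2%. For translation it was 32.4% and for RNA polymerase II and Mediator 29.8%, against 10.1% of all protein-coding genes. High shares in these lists were therefore not particular to wide peaks. The nuclear pore and transport list had 11 of 41 genes under wide peaks (26.8%, exact 95% interval 14.2 to 42.9%), and npp-21, npp-12, npp-3 and npp-6 had the most bases covered. The spindle and cytokinesis list had 24 of 115 (20.9%, 13.9 to 29.4%), among them nmy-2 and mel-11, for a subunit of myosin phosphatase. Splicing genes had 14 of 71 (19.7%, 11.2 to 30.9%), including prp-8, snrp-200 and mog-1. Translation factors and tRNA synthetases had 14 of 74 (18.9%, 10.7 to 29.7%), with cars-1, iars-1, lars-1 and the eIF4G gene ifg-1. RNA polymerase II and Mediator had 10 of 57 (17.5%), led by ama-1, for the largest subunit of the polymerase, with 84.8% of 10100 bp in 1 peak.

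Lists of small RNA, meiosis, chromatin, germ granule and replication genes followed. Small RNA pathway genes had 13 of 76 (17.1%, exact 95% interval 9.43 to 27.5%), with cid-1, rrf-1, drh-3 and the Dicer gene dcr-1, 71.7% of which lay in a peak of 6083 bp. Meiosis and DNA repair had 12 of 77 (15.6%), including the condensin gene smc-4. Chromatin factors had 16 of 113 (14.2%). Among them were lin-13, set-16, set-2, let-418, which encodes a Mi-2 remodeller, and the HP1 gene hpl-2. Germ granule and oocyte genes had 10 of 72 (13.9%, 6.87 to 24.1%), among them larp-1, rme-8, atx-2 and the germline Notch receptor gene glp-1, with 69.5% of 7458 bp covered. The replication and cell cycle list, fixed by symbol, had 10 of 99 (10.1%), with apc-1 and cul-2. Of the 72 germ granule and oocyte genes a further 23 met narrower peaks only, and of the 77 meiosis and repair genes 33 (31.9% and 42.9%, against 10.1% of all protein-coding genes). For the small RNA, chromatin and replication lists this share was 32.9%, 32.7% and 36.4%.

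In the next group of lists the interval included or came near the share of all genes. Mitochondrial ribosomal proteins had 7 of 71 (9.86%, exact 95% interval 4.06 to 19.3%), and the 4 with the most bases, mrpl-44, mrps-18C, mrps-22 and mrps-11, all lay in peaks shared with further genes. Proteasome genes had 3 of 33, heat shock and DNAJ genes 3 of 57, and sex determination and dosage compensation genes 2 of 27, namely dpy-26 and dpy-21. Cytosolic ribosomal proteins, whose median length was 747.5 bp, had 3 of 78 (3.85%, 0.80 to 10.8%), namely rpl-3, rpl-7A and rpl-19.

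Several large or tissue-specific gene families were almost without wide peaks. Narrower peaks only were met by 4 of 269 nuclear hormone receptor genes, 0 of 149 neuropeptide genes and 0 of 82 histone genes. The counts were 4 of 1370 for chemoreceptor symbols, 4 of 720 for the F-box list and 1 of 101 for sperm genes. For muscle genes they were 3 of 51 and for collagens 6 of 184, against 10.1% of all protein-coding genes. Low shares were thus not particular to wide peaks. None of 269 nuclear hormone receptor genes was spanned by a wide peak, which allows a share of up to 1.12% by a limit of 3 counts and of 1.36% by the exact interval. The same limits were 2.01% and 2.45% for 0 of 149 neuropeptide genes, 3.66% and 4.40% for 0 of 82 histone genes, and 5.88% and 6.98% for 0 of 51 muscle genes. By either limit, the bounds for receptors and neuropeptides lie below the share of all genes, and those for histones and muscle do not. However, 38 of the 149 neuropeptide genes lie on X, where no gene was spanned, and their median length was 903 bp. Genes of up to 1 kb had a share of 1.46%, below both neuropeptide limits. A share lower than that of genes of like length was therefore not shown for neuropeptides. None of the lists was matched by single autosome. On V 0.821% of all genes were spanned by a wide peak, below both limits for nuclear hormone receptors. Chemoreceptor symbols had 2 of 1370 (0.146%), srfb-1 and srgp-1. Both entered the list by symbol prefix, which does not make them chemoreceptor genes. The F-box, MATH, C-type lectin and pals families had 2 of 720 (0.278%), clec-178 and math-33. Collagens had 4 of 184 (2.17%, exact 95% interval 0.595 to 5.47%), which did not differ from all genes by more than counting error. Of these, col-84 lay in the peak of 6076 bp that covered npp-3. Sperm genes, with a median length of 384 bp, had 1 of 101 (0.990%, exact 95% interval 0.025 to 5.39%). That interval includes the share of all genes. The gene was spe-5, for a V-ATPase subunit, in a peak of 4705 bp shared with the proteasome gene pas-3. The gene srfb-1 lay in the second rme-8 peak.

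Gene length differs between the lists, with medians from 384 bp for histones and sperm genes to 6036 bp for sex determination and dosage compensation. Among autosomal genes of over 4 and up to 8 kb, 182 of 2300 (7.91%) were spanned by a wide peak. In the same range it was 8 of 20 meiosis and repair genes, 11 of 33 spindle and cytokinesis genes, 5 of 14 nuclear pore genes and 7 of 29 chromatin factors. The shares varied with the length range. Above 8 kb, where 7.72% of all autosomal genes were spanned, it was 1 of 11 meiosis and repair genes, 2 of 16 spindle and cytokinesis genes, 3 of 6 nuclear pore genes and 3 of 16 chromatin factors. Between 2 and 4 kb, where 3.87% of all were spanned, it was 2 of 27 meiosis and repair genes, 8 of 32 spindle and cytokinesis genes, 2 of 15 nuclear pore genes and 2 of 29 chromatin factors. Over 4 and up to 8 kb it was 0 of 35 nuclear hormone receptor genes, 0 of 10 muscle genes and 0 of 10 neuropeptide genes. With so few genes, these counts of 0 do not show a share below the 7.91% of all autosomal genes in that range. Lists were fixed by name and members of a family can share a locus, so these counts are a description.

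**Figure D5:**
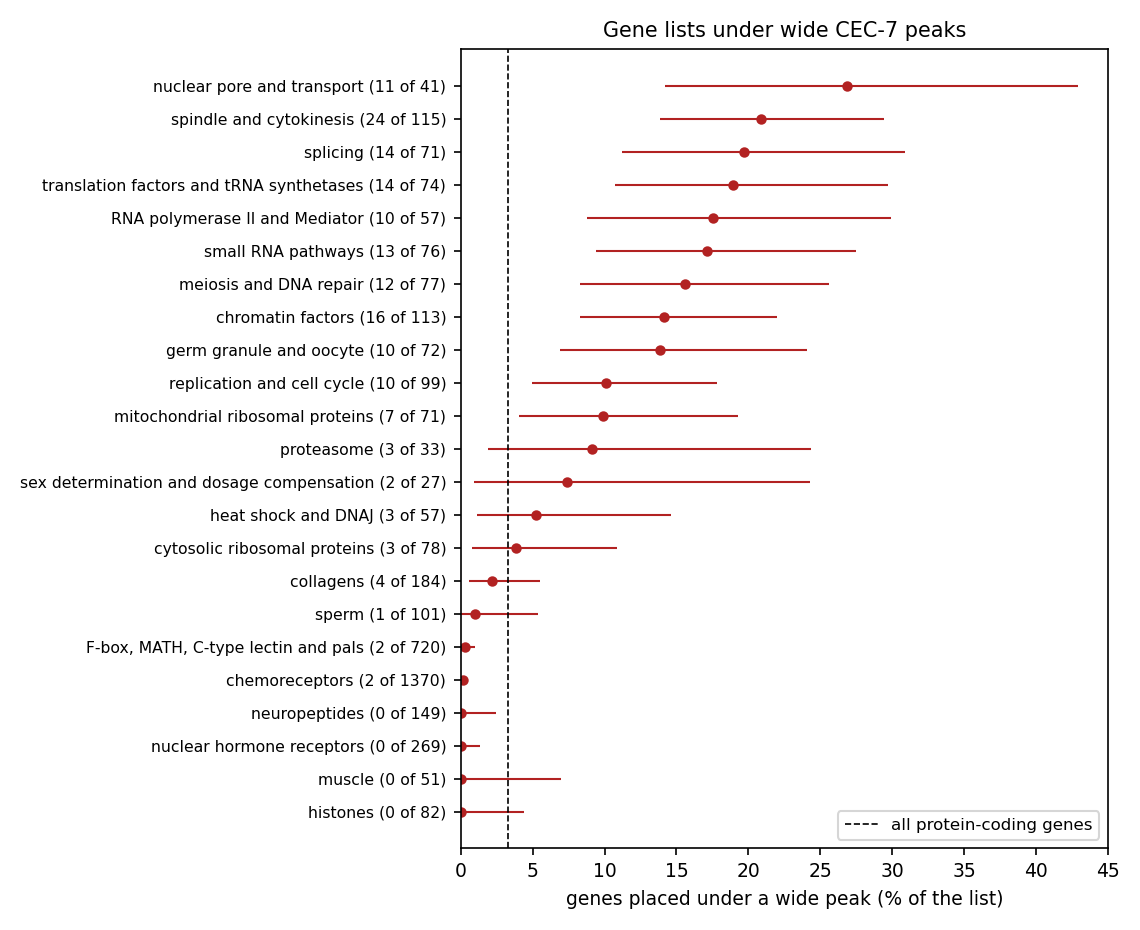
For each gene list the point gives the percent of its genes placed under a wide peak and the bar the exact binomial 95% interval, which covers counting error only. The dashed line is the 3.29% of all protein-coding genes. Nuclear pore, spindle and splicing genes are highest, at 26.8%, 20.9% and 19.7%, and histone, muscle, nuclear hormone receptor and neuropeptide genes are at 0.

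Wide peaks with the lowest scores varied in how much of a gene they held. The wide peak with the second lowest score, 52.8, was 7396 bp wide and lay wholly inside daf-15, the Raptor gene, with 84.3% of its 8772 bp. The lowest, 51.37, lay over ekl-7 and mcm-4, a replicative helicase gene. Scores of 52.81, 56.16 and 59.29 belonged to peaks that lay almost wholly inside tlk-1, let-607 and sax-2, and held 54%, 45.3% and 22.2% of these longer genes.

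A small set of wide peaks lay away from protein-coding genes. No protein-coding gene was placed at 10 wide peaks (2.53%), the same share as the 2.53% of narrower peaks. The widest of them, I:15059802-15071786 (11985 bp, score 525.22), lay at the right end of chromosome I over 4 rRNA genes (rrn-1.1, rrn-1.2, rrn-2.1 and rrn-3.1). Ribosomal DNA is a tandem array, and use of the input library in peak calling is not stated, so the part of copy number in this peak was not tested. At V:7916662-7925339 a peak of 8678 bp with a score of 542.83 held 1 annotated non-coding RNA. The peak at V:4332845-4337040 (score 496.09) met irld-1 and that at III:1299238-1303489 (score 110.43) fbxa-28 by less than the rule asks, and III:2077259-2082990 (score 69.63) likewise cpt-3. No entry of the gene table lay in II:1450608-1454987 (score 497.69) or III:7434602-7439189 (score 143.28).

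All 3 wide peaks on X belonged to this set. No table entry lay in X:7353836-7361499 (7664 bp, score 313.38) or X:15806772-15811619 (score 130.65), and X:108721-114731 (score 128.40) only touched elk-2 and fbxa-221. On the autosomes 7 of 392 wide peaks were without a placed gene, so the wide peaks on X differed from these, though X had only 3. Narrower peaks were also few on X, at 14, and 17.6% of its peaks were wide, against 14.3% over the list. Whether the narrower peaks on X lack genes too is not given here. Repeats and sequence composition at these sites were not analysed here.

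Short RNA genes were placed where they lay wholly inside a peak. There were 16 snoRNA genes at 12 wide peaks (7.25 per Mb of wide peak, against 5.89 per Mb of narrower peak and 3.45 per Mb of chromosome), for example C50C3.13 and C50C3.14 in the prp-8 peak and 3 in the top-2 peak. Genes for tRNAs were at 0.907 per Mb of wide peak, 1.26 per Mb of narrower peak and 6.10 per Mb of chromosome, and piRNA genes at 3.63, 4.84 and 153 per Mb. Pseudogenes were at 3.63 per Mb of wide peak, 7.78 per Mb of narrower peak and 19.2 per Mb of chromosome.

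The genes for CEC-7 and for the mutated FEM-2, both on III, were met by narrower peaks. All 1795 bp of cec-7 lay in a peak of 3677 bp (score 244.47), and fem-2 (2608 bp) met a peak of 1360 bp (score 74.48).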

How the data were processed

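Per the labels' protocols, frozen worms were ground, fixed with 1% formaldehyde for 10 minutes and sonicated. Per the submitters' processing notes, BWA and ce10 were used. Per the file headers, peaks were called with MACS on WormBase WS220. The sources used here do not state the version, settings, control, pooling or depth. The deposited score per peak is the authors' own, of unstated scale. The members and gene lists were chosen with earlier results of these data known. Coverage of genes, peak edges and the match to 1 gene were added after the data were seen.

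Genes were those of RefSeq's table for WBcel235. An overlap of at least 500 bp, or of the whole gene, placed a gene, and moves of the peaks by 100 and 500 bp were tried. Covered percentages can be off by the difference between builds. The table has no strand, so the planned strand order was reduced to spacing. Sequences were not used here. The last gene end served as chromosome length. Symbols were matched by prefix. Named peaks and genes were the widest, the highest and lowest in score, those at the threshold, those with most or no genes, the longest covered genes and up to 4 per list. Fewer were named where space required, some items are not reported here, and some by their values (let-363 neighbours, weak peaks). How well placement separates genes as close as neighbours in 1 wide peak was not tested. Their median gap was 97 bp, and 25.2% of these pairs overlapped. SciPy 1.17.1 gave the exact Clopper-Pearson intervals and pandas 2.3.3 (Python 3.11.15) the counts. Figures were drawn with matplotlib 3.10.9.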

Additional observations from a re-analysis of the deposited data

How the results depend on the processing

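No paired analysis was possible because there was 1 ChIP library and no peak list to pair it with was used here. Values are descriptions with no test, so only their size can move. Setting the width at 3000 bp gave 742 wide peaks with 3408377 bp over 1095 genes (5.48% of all), 39.9% of peaks with 2 or more genes, 6.25% of listed genes and 63.4% of narrower peaks on arms. At 5000 bp there were 209 wide peaks with 1379708 bp, 4.31% of them on V, over 396 genes (1.98%), with 57.9% holding 2 or more genes and 2.46% of listed genes. Any overlap with peaks extended by 500 bp gave 4.35% of genes, 71.9% of peaks with 2 or more genes, median gene lengths of 2854.5 bp under wide and 2781 bp under narrower peaks only, and 4.87% of listed genes, with 1 histone and 1 muscle gene among them. With the whole gene inside, the values were 422 genes, 2.11%, 26.6%, 2150.5 bp, 1739 bp and 2.71%. An overlap of 1000 bp gave medians of 3434 bp under wide and 3442 bp under narrower peaks only. Genes at the midpoint, each counted once, gave 5091 and 3623 bp. All biotypes gave 1.60% of genes, 55.9% of peaks with 2 or more, 2797 and 2972.5 bp. The order of these medians also turned among the higher-scoring 50% of peaks (3227 and 3373 bp), at 5000 bp (2990.5 and 3283 bp) and with peaks moved 100 bp to the left (3230 and 3248 bp). With arms as the outer 25%, 19.0% of wide and 41.7% of narrower peaks lay on them. Merging peaks less than 500 bp apart gave distances to the next region of 2883 bp from wide and 3040 bp from narrower ones. Edges within 200 bp of a gene end were 37% for wide and 24.3% for narrower peaks (14.1% of all bases), and within 1000 bp 74.9% and 54.7% (50.6% of all bases). Narrower peaks of 3000 bp or more had 58.4% within 500 bp. Not counting single gene lists, 41 alternative values moved and 80 stayed within their interval or within 1.5 times the count, among them all those with peaks moved by 100 or 500 bp. Of the counts of single gene lists 193 stayed so and 37 moved further. Chemoreceptors and F-box families came to 6 each by any overlap, sex determination to 0 with the whole gene inside, and with peaks moved 500 bp to the right sperm genes came to 2 and F-box families to 4. Unknown depth limits the list to regions that passed the caller.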

Other observations

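Genes under wide peaks were also counted by symbol prefix, a view chosen after the values were seen and with no test. They are read against the 3.29% of all protein-coding genes. Only prefixes with at least 3 genes under wide peaks were listed, so a small family could enter only with a high share. Beyond the lists above, 7 of 33 vps genes (vesicle trafficking) were spanned, among them vps-34, vps-16 and vps-13D, and 4 of 20 sec genes of secretion. All 3 ubr genes, for E3 ubiquitin ligases, were under wide peaks, as were 3 of 4 rpc genes, named for subunits of RNA polymerase III, 3 of 11 ints genes of the Integrator complex and 3 of 8 cct genes of the cytosolic chaperonin. The neighbours gop-1, gop-2 and gop-3 shared 1 peak. Some further prefixes were also far above the share of all genes, among them dpf (4 of 7), mel and zyg (3 of 5 each), mog (3 of 6) and swsn (3 of 7). Some larger ones were nearer to it, with 5 of 94 unc genes, 3 of 55 pqn genes, 3 of 48 rpl genes, 4 of 156 col genes and 5 of 55 tag genes. Genes with a sequence name only made up 151 of 658 under wide peaks (22.9%, exact 95% interval 19.8 to 26.4%), 26.7% under narrower peaks only and 43.6% of all protein-coding genes.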
